A study of Mus musculus with 3 samples.

Results

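Genomic imprinting silences one parental copy of a gene, so that only the maternal or the paternal allele is transcribed. Most imprinted genes lie in clusters, each governed by a control region whose DNA methylation is set in the germline and must survive every later division. In cultured pluripotent cells these marks can drift, and many imprinted genes act on fetal growth, among them the growth factor gene Igf2 and the growth inhibitor genes Cdkn1c, Phlda2 and Grb10.

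The members were 37 mouse genes from a list of imprinted loci, matched by gene symbol to the probe table of the array platform. Of these, 31 had at least 1 probe, 52 probes in all of the 25697 on the array. H19, Meg3, Rian, Mirg, Kcnq1ot1 and Zrsr1 had none under their symbol or gene identifier, and were not analysed here. All of them but Zrsr1 are noncoding RNAs. Of the 31 genes, 22 were detected on at least 1 array (detection p under 0.01) by the probe with the highest mean level, and are called measured. Over the whole array 8679 of 16593 genes with a probe were measured (52.3%). The 9 others were Ascl2, Rtl1, Zim1, Usp29, Sgce, Magel2, Mcts2, Plagl1 and Nap1l5, whose signals were not above background on any array.

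Total RNA of 3 mouse pluripotent cell lines was hybridised to Illumina bead arrays, 1 array per line. E3 (hybrid background) and T9 (129 background) are epiblast stem cells (EpiSC), which resemble the epiblast after implantation. Both were grown on inactivated CF1 mouse fibroblasts with FGF2 at 5 ng/ml, and were lifted off with collagenase IV. OG2 (hybrid background) is an embryonic stem cell (ESC) line, the earlier, naive state, and was grown on gelatin with PD0325901 (1 uM, a MEK inhibitor), CHIR99021 (3 uM, a GSK3 inhibitor) and LIF (1000 U) and harvested on its dish. All 3 lines were otherwise untreated and shared the KSR base medium. Cell state, feeders, FGF2, inhibitors, LIF and harvest differ together between EpiSC and ESC and cannot be told apart. The array reads total transcript and does not tell the maternal from the paternal copy. The terms "maternally expressed" and "paternally expressed" give what is known of each gene in mouse tissues and were not measured. In these bulk samples, fewer cells of a type and less RNA per cell cannot be told apart.

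Between 10768 and 11171 probes were detected per array, and bead standard errors had medians of 4.17% to 4.36% of the signal over the detected probes. The arrays carried the markers of their labels: all 4 primed markers (Fgf5, Pou3f1, Otx2, Lefty1) were detected in both EpiSC lines and 3 of them rose (Otx2 had an adjusted p of 0.0781), and the 4 naive markers with a probe (Esrrb, Zfp42, Klf4, Tbx3) fell in EpiSC (limma adjusted p under the threshold of 0.05 for all 4). Of 11 fibroblast markers with a probe, E3 had 3 above background and both T9 and OG2 had 5, and their summed intensities were 423 (E3), 213 (T9) and 330 (OG2). Col1a2, Col3a1, S100a4, Postn and Pdgfrb were below background on all 3 arrays. Endoderm markers summed to 103, 172 and 246 (E3, T9, OG2), with Gata4, Sox7, Afp and Ttr below background throughout. Trophoblast markers summed to 113, 583 and 1514, and Cdx2 was detected in T9 only.

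Promoter stretches are shown for Grb10, Nnat and Snrpn, which had higher levels in both EpiSC lines, and for Mest, which was lower in both and whose window holds the letters TGCCGC (either strand, GCGGCA on the other). Among the other measured members, Cdkn1c and Peg10 had no entry in the promoter table. Impact was left out of this comparison, and its promoter is not described. None of the remaining measured members had these letters. That hexamer is the core recognised by Zfp57, the zinc finger protein that keeps germline imprints. The stretches are the 250 bases before an annotated RefSeq transcript start (build GRCm38.p6), 5′ to 3′ on the strand of the gene, with the hexamer in capitals. They are chr11:12037421-12037670 for Grb10 (minus strand), chr2:157559828-157560077 for Nnat (plus strand), chr7:60005200-60005449 for Snrpn (minus strand) and chr6:30737800-30738049 for Mest (plus strand).
Grb10: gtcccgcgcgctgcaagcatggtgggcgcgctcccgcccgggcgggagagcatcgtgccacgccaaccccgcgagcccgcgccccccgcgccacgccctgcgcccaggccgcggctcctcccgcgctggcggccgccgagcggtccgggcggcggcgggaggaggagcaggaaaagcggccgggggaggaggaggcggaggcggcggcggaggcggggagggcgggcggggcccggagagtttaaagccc
Nnat: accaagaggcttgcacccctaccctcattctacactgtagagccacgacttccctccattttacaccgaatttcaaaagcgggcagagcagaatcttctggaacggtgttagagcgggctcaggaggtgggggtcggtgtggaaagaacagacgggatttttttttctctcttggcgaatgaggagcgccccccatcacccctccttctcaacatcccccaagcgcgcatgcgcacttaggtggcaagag
Snrpn: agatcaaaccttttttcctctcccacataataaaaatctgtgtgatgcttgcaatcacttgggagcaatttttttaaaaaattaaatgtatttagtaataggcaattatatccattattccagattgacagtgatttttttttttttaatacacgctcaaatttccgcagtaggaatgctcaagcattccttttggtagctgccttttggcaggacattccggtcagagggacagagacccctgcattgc
Mest: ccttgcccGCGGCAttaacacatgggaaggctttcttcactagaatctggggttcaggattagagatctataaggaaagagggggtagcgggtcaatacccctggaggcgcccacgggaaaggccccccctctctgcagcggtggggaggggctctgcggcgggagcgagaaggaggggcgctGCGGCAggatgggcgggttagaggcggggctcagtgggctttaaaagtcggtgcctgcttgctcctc

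The Grb10 stretch held 40 CpG dinucleotides, the Nnat stretch 12, the Snrpn stretch 3 and the Mest stretch 14. The median was 6 over the 32851 promoters of the table and 10 over those of the members. Grb10, Snrpn and Mest have further annotated starts that are not shown. Another Grb10 start held 8 CpG, and another Mest start held 7 and no hexamer. The Mest stretch held the hexamer at 2 positions. Among all promoters 8.68% held it at least once. Among the 49 promoters of the 31 members with an entry outside chromosome 18, 7 did (14.3%), 2 of which are overlapping Mest starts. Other members with it were Mcts2, Meg3, Nap1l5, Plagl1 and Zim1, none of them measured. A match of letters is a description and not a binding site.

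EpiSC were first compared with ESC, each in its standard culture. With limma and Benjamini-Hochberg adjustment at 0.05, none of the 22 measured members passed the threshold, while 106 of 8679 measured genes did (1.22%), as did 1.15% of all measured probes. Without adjustment, 10 of the 22 members and 24.2% of all genes had a limma p under 0.05. By size, 6 of the 22 lay at least 2-fold higher in both EpiSC lines than in ESC, where 6.77% of all genes did, and 1 lay 2-fold lower, where 7.07% did. The 6 were Grb10, Cdkn1c, Nnat, Gnas, Snrpn and Ppp1r9a, and the 1 was Impact. Both EpiSC lines lay above ESC for 13 members and below it for 6, against 42.9% and 38.7% of all genes. Of the 13, Nnat, Peg3 and Slc22a18 were not above background in OG2, so that detection alone placed them above ESC. For Slc22a18 the bound was only 1.03-fold, and no direction is given for it. Commd1, also of the 13, lay only 0.04 (E3) and 0.06 (T9) above ESC on the log2 scale. A second Commd1 probe lay below ESC in E3. Of the 6, Ube3a had another measured probe above ESC in both lines, and Slc38a4 was not above background in E3. For Peg10, also of the 6, the T9 and OG2 signals differed by less than their combined bead standard error. All these comparisons share the single ESC array, and the p-values measure only the spread between 2 lines of different background.

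**Figure D1:**
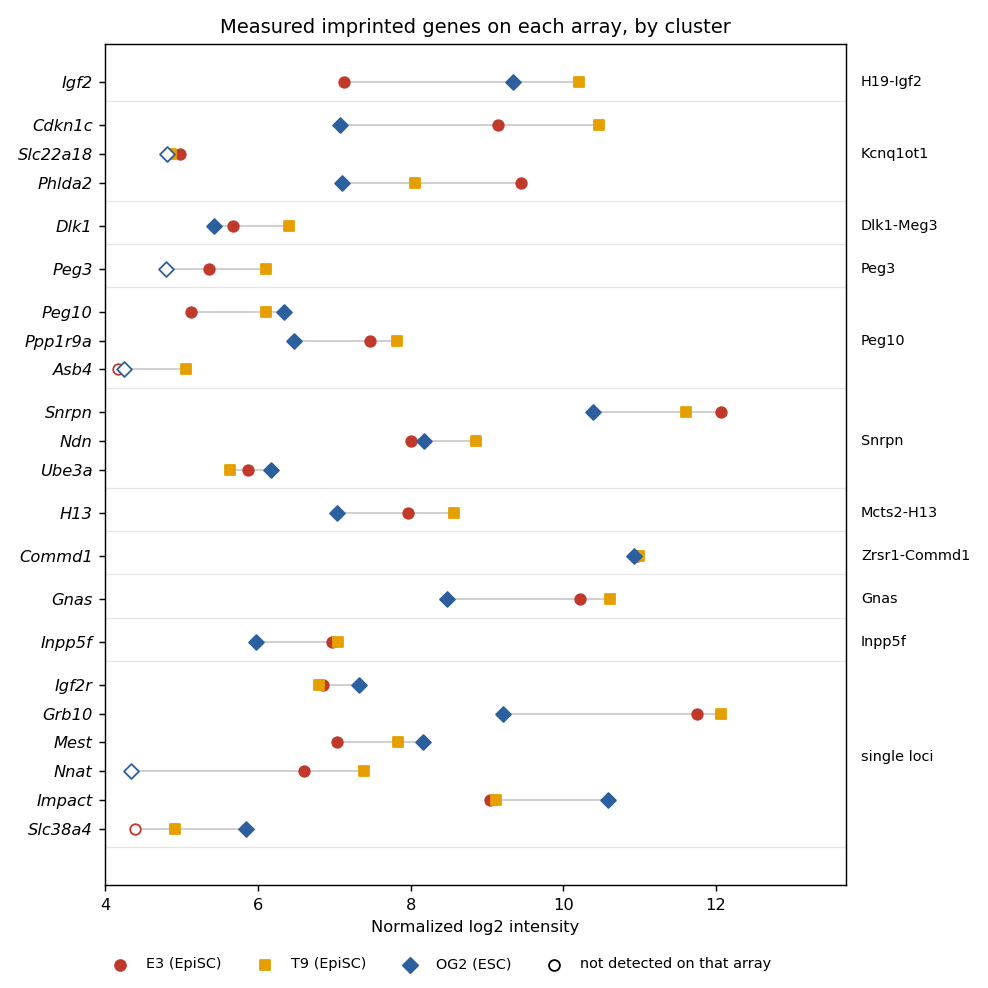
Normalized log2 intensity (x axis) of the 22 measured imprinted genes, in rows grouped by cluster, with E3 as circles, T9 as squares and OG2 as diamonds, open where the probe was not detected on that array. Grb10, Cdkn1c, Gnas and Snrpn have both EpiSC points right of the ESC point, Impact has both left of it, and Igf2 has E3 at 7.13 and T9 at 10.21 on either side of OG2 at 9.34. Positions of different genes are not comparable, since each comes from its own probe.

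Grb10 encodes an adaptor that damps insulin and IGF receptor signalling and is expressed from the maternal allele in most tissues. Its probe (ILMN_2518412) had a scanner signal of 3695 ± 69.1 on the E3 array and 4382 ± 143 on that of T9, against 625.2 ± 31.2 on the OG2 array (± bead SE). Both EpiSC lines were well above the ESC line and close to each other. On the normalized scale the levels were 11.76 and 12.06, against 9.21. The log2 difference was 2.70 ± 0.28 (SE from limma, n = 2 EpiSC lines and 1 ESC line). This is 6.51-fold, with an adjusted p of 0.0525. Of all measured genes, 98.1% had a smaller difference in either direction. The adjusted p ranged from 0.0305 to 0.160 over the processing settings tried, and passed the threshold under 5 of 9 alternatives.

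Nnat, a paternally expressed gene for a small membrane proteolipid of neural and endocrine cells, had signals of 163.2 ± 8.73 in E3 and 238.02 ± 13.5 in T9, and was not above background in OG2 (83.1 ± 2.80). With the ESC level set to the dimmest detected probe, it was at least 4.35-fold higher in EpiSC (limma adjusted p = 0.0818). Because Nnat entered the test only through the EpiSC arrays, its direction was fixed by detection. A second Nnat probe was not detected on any array. Of the members 3 (Nnat, Peg3 and Slc22a18) were above background in E3 and T9 but not in OG2, as were 6.44% of all measured genes.

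Gnas encodes the stimulatory G protein alpha subunit and, from other promoters, several imprinted transcripts of either allele. Signals of the main Gnas probe (ILMN_2632206) were 1294 ± 74.4 on the E3 array and 1631 ± 70.6 on that of T9, against 405.1 ± 20.2 on the OG2 array. Both EpiSC values were higher, with a log2 difference of 1.94 ± 0.30 and a limma adjusted p of 0.0805. A second probe of the same transcript differed by 1.58 ± 0.28 in the same direction. Both remaining Gnas probes, assigned to other transcripts of the locus, were not detected on any array.

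Impact, a paternally expressed gene for an inhibitor of the GCN2 stress kinase, was the 1 member that lay 2-fold below ESC in E3 and in T9. Its probe (ILMN_2760977) read 606.3 ± 26.0 on the E3 array and 633.7 ± 16.3 on that of T9, against 1544 ± 58.5 on the OG2 array. The EpiSC lines lay close together, with a log2 difference of -0.07 (E3 minus T9), and 14.5% of all genes had a smaller one. The difference from ESC was -1.51 ± 0.25, a level 2.85-fold lower in EpiSC (limma adjusted p = 0.0868).

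**Figure D2:**
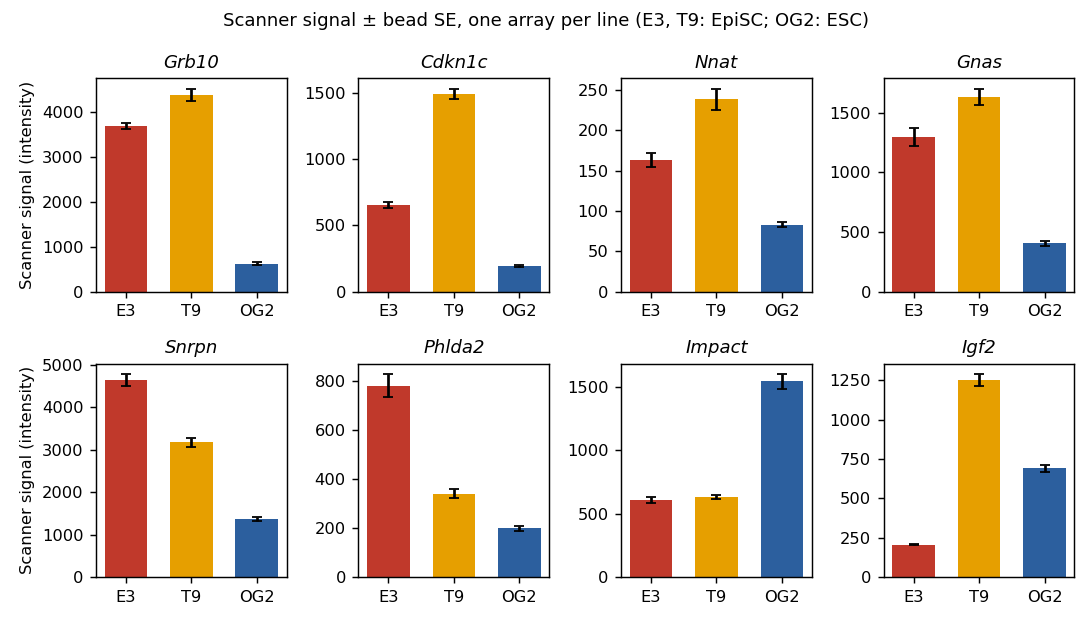
Scanner signal (intensity, y axis from 0) of 8 imprinted genes on each array, as bars for E3, T9 and OG2 with the bead standard error as error bar, which covers error within an array only. Grb10, Cdkn1c, Nnat, Gnas, Snrpn and Phlda2 have both EpiSC bars above the ESC bar, Impact has both below it, and Igf2 is lowest in E3 and highest in T9.

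The Kcnq1ot1 cluster at the distal end of chromosome 7 holds maternally expressed growth inhibitors that the paternal noncoding RNA Kcnq1ot1 silences in cis. Of its 5 listed members 3 were measured. Cdkn1c and Phlda2 had higher levels in E3 and in T9 than in OG2, while Slc22a18 was too dim for a direction. Cdkn1c, the cyclin-dependent kinase inhibitor of this cluster, read 651.4 ± 22.8 on the E3 array and 1495 ± 40.3 on that of T9, against 195.4 ± 6.62 on the OG2 array. It was thus 4.23-fold higher in E3 and 10.6-fold higher in T9. The log2 difference of 2.74 ± 0.63 had a limma adjusted p of 0.121, and the EpiSC lines lay 2.50-fold apart.

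Phlda2, a pleckstrin homology protein that restrains placental growth, had the opposite order of the EpiSC lines. It read 782.5 ± 47.5 on the E3 array and 340.5 ± 17.3 on that of T9, against 198.5 ± 9.07 on the OG2 array. E3 lay 5.09-fold and T9 1.95-fold above ESC, so the count of genes 2-fold apart in both lines misses Phlda2 by little. Its log2 difference was 1.65 ± 0.65, with a limma adjusted p of 0.240. Slc22a18, a transporter gene of the cluster, lay close to the detection limit on all arrays, at 97.9 ± 3.08 (E3), 95.5 ± 2.89 (T9) and 92.2 ± 2.90 (OG2). The trophoblast regulator gene Ascl2 was not detected, and Kcnq1ot1 itself had no probe.

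Next to this domain, the H19-Igf2 cluster was read through Igf2 alone, the paternally expressed fetal growth factor. Its probe (ILMN_2597769) gave 205.7 ± 5.95 on the E3 array and 1250 ± 39.6 on that of T9, against 689.6 ± 23.2 on the OG2 array. The EpiSC lines thus lay on opposite sides of ESC, E3 4.62-fold below and T9 1.83-fold above. In the EpiSC mean the log2 difference was -0.67 ± 1.36, with a 95% interval from -4.46 to 3.12 and a limma adjusted p of 0.787. With E3 left out the value is 0.87, the T9 difference, and with T9 left out it is -2.21. Igf2r, the maternally expressed receptor that clears this factor, differed by -0.51 ± 0.25 (95% interval -1.21 to 0.19) and by -0.52 ± 0.30 with its second probe.

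The Snrpn cluster on chromosome 7, the mouse counterpart of the human Prader-Willi and Angelman region, had 3 of 4 listed members measured. Snrpn, the paternally expressed gene for a spliceosomal protein, read 4651 ± 137 on the E3 array and 3173 ± 97.7 on that of T9, against 1371 ± 52.5 on the OG2 array. Both EpiSC lines were higher, by 1.44 ± 0.32 in the log2 mean (limma adjusted p = 0.115), and a second probe differed by 1.18 ± 0.35. The paternally expressed Ndn, a MAGE family growth suppressor, read 325.7 ± 14.0 on the E3 array and 540.1 ± 26.4 on that of T9, against 342.9 ± 12.7 on the OG2 array. E3 lay close to ESC and T9 above it, with a log2 difference of 0.25 ± 0.45. Magel2, which lies beside Ndn, was not detected.

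Ube3a, the ubiquitin ligase gene that neurons express from the maternal allele, gave 2 measured probes that disagreed. They are assigned to different transcripts. The first read 124.2 ± 5.41 on the E3 array and 117.1 ± 5.45 on that of T9, against 135.0 ± 5.87 on the OG2 array, a log2 difference of -0.42 ± 0.27. The second read 120.06 ± 4.73 and 124.4 ± 6.21, against 101.3 ± 4.42, a difference of 0.56 ± 0.25. No direction is given for Ube3a.

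**Figure D3:**
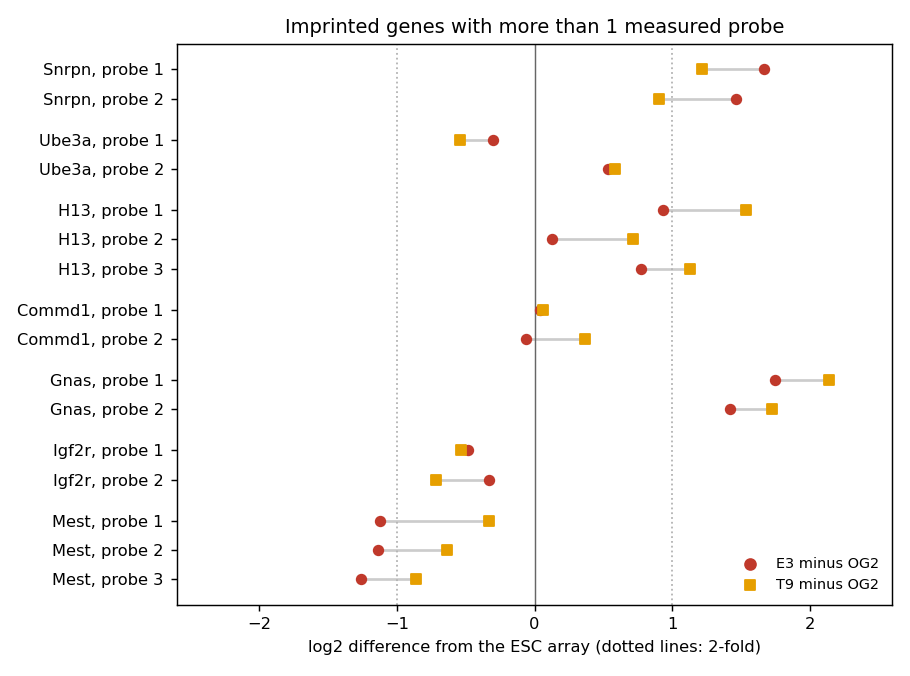
Log2 difference from the ESC array (x axis, dotted lines at 2-fold) for each measured probe of the 7 imprinted genes that have more than 1, with circles for E3 and squares for T9. Probes of Snrpn, Gnas, H13, Igf2r and Mest lie on 1 side of 0 for each gene, while those of Ube3a lie on opposite sides and a Commd1 probe spans 0. Probe 2 of H13 was above background in T9 only.

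In the Peg10 cluster on proximal chromosome 6, Ppp1r9a was higher in both EpiSC lines, while Peg10 was clearly lower in E3 only. Ppp1r9a, the maternally expressed gene for the actin-binding protein neurabin, read 243.3 ± 6.86 on the E3 array and 297.8 ± 12.9 on that of T9, against 150.5 ± 6.95 on the OG2 array. Its log2 difference was 1.18 ± 0.29 (limma adjusted p = 0.138), and E3 lay at the 2-fold limit with a log2 difference of 1.00. Peg10, a paternally expressed retrotransposon-derived gene needed for the placenta, read 101.2 ± 4.70 on the E3 array and 136.5 ± 6.27 on that of T9, against 143.2 ± 5.86 on the OG2 array. It was 2.33-fold lower in E3 and 1.18-fold lower in T9. The T9 and OG2 signals differed by less than their combined bead standard error. The Peg10 log2 difference was -0.73 ± 0.49 (limma adjusted p = 0.431). Asb4 was detected in T9 only, at 100.06 ± 4.76, and the sarcoglycan gene Sgce was not detected.

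Members of the Dlk1-Meg3 and Peg3 clusters were dim. Dlk1, the paternally expressed Notch-like ligand gene of chromosome 12, read 116.6 ± 4.16 on the E3 array and 154.1 ± 6.06 on that of T9, against 106.5 ± 5.37 on the OG2 array. T9 lay above both other lines, and the log2 difference was 0.61 ± 0.41. Rtl1 was not detected, and Meg3, Rian and Mirg had no probe, so the maternal side of this cluster was not read. Peg3, a paternally expressed zinc finger gene, read 107.2 ± 4.28 on the E3 array and 136.6 ± 6.68 on that of T9, and 91.9 ± 3.72 on the OG2 array, where it just missed detection. With OG2 at its bound the EpiSC level was at least 1.82-fold higher (limma adjusted p = 0.266), a direction that detection fixed. Its neighbours Usp29 and Zim1 were not detected.

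Mest, a paternally expressed hydrolase-like gene of chromosome 6, was lower in both EpiSC lines by each of its 3 probes. The main probe read 197.8 ± 10.2 on the E3 array and 299.2 ± 15.7 on that of T9, against 340.8 ± 13.3 on the OG2 array. The log2 differences of the 3 probes were -0.73 ± 0.43, -0.89 ± 0.33 and -1.06 ± 0.30, with adjusted p between 0.163 and 0.376. E3 was the lowest array with each of the 3 probes. Slc38a4, a paternally expressed amino acid transporter gene, was below background in E3 (85.9 ± 2.36) and dim in T9 (96.6 ± 4.62), against 120.8 ± 5.68 in OG2. Its fitted log2 difference of -1.19 rests in part on the E3 background level and ran from -2.09 to -0.45 over the processing settings.

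H13, a signal peptide peptidase gene on chromosome 2 that hosts the retrogene Mcts2, read 317.9 ± 15.8 on the E3 array and 454.4 ± 33.2 on that of T9, against 191.7 ± 11.9 on the OG2 array. By this probe E3 lay 1.91-fold and T9 2.90-fold above ESC, so H13 also missed the 2-fold count by little. The log2 difference was 1.24 ± 0.36, and a second probe detected on all 3 arrays differed by 0.95 ± 0.30. Its dimmest measured probe was above background in T9 only. Inpp5f, an inositol phosphatase gene whose internal transcripts are imprinted in brain, read 191.4 ± 5.24 on the E3 array and 202.6 ± 9.80 on that of T9, against 126.2 ± 4.21 on the OG2 array. Its log2 difference was 1.04 ± 0.25. With E3 1.99-fold and T9 2.12-fold above ESC, Inpp5f missed the 2-fold count by the E3 value alone. Commd1, which hosts Zrsr1 in an intron, had the smallest difference of all members, at 0.05 ± 0.25, with a 95% interval from -0.65 to 0.75.

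Grouped by expressed allele, 3 of 10 measured maternally expressed genes were 2-fold higher in both EpiSC lines and 0 were 2-fold lower. Of 10 measured paternally expressed genes 2 were higher and 1 lower. The median log2 difference was 0.77 for maternally expressed genes (0.55 in E3 and 0.89 in T9) and -0.21 for paternally expressed genes, against 0.05 over all measured genes. The paternal median log2 difference had opposite signs in the 2 lines, -0.65 in E3 and 0.78 in T9. All 3 arrays detected 17 of the 22 members and 75.0% of all measured genes. Among these members the medians were 1.21 for 8 maternally expressed and -0.67 for 7 paternally expressed genes. The medians lay closer together with other filters, at 0.37 (maternal) and -0.05 (paternal) with a detection p under 0.05 and at 0.24 and 0.0043 with no filter. With no background correction they were 0.45 and -0.06. These counts describe the members and were not tested against each other. Genes of both alleles were measured in the Snrpn and Peg10 clusters only, where in the first the paternally expressed Snrpn and in the second the maternally expressed Ppp1r9a was 2-fold higher.

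**Figure D4:**
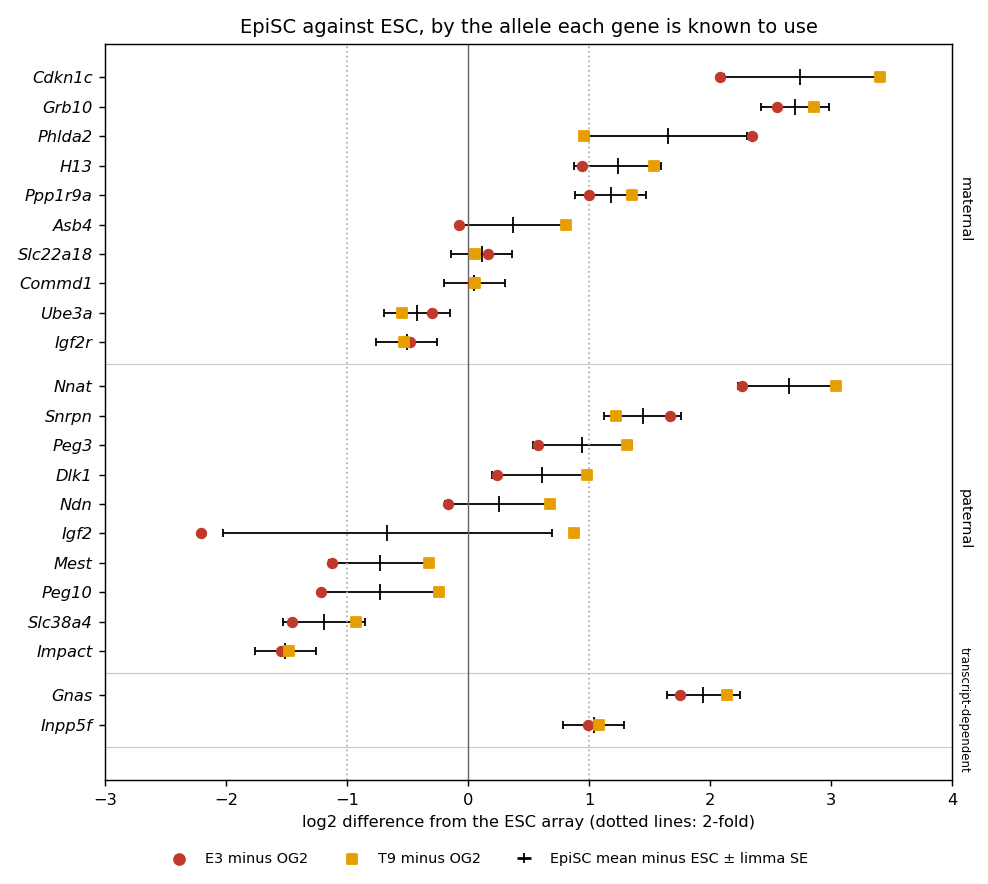
Log2 difference from the ESC array (x axis, dotted lines at 2-fold) of the 22 measured imprinted genes, in rows grouped by the allele each is known to express, with circles for E3, squares for T9 and a bar for the EpiSC mean with its limma standard error. Maternally expressed genes run from Cdkn1c at 2.74 to Igf2r at -0.51 and paternally expressed ones from Nnat at 2.65 to Impact at -1.51, with the widest split between the lines for Igf2.

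The second comparison set E3 against T9, 1 array each, so that no test was possible. Of 22 measured members 1 was at least 2-fold higher in E3 (2.41% of all genes) and 2 were 2-fold higher in T9 (3.39% of all genes). These were Phlda2, at 2.62-fold in E3 over T9, and Igf2 and Cdkn1c, at 8.46-fold and 2.50-fold in T9 over E3. The Igf2 difference exceeded that of 99.8% of all measured genes. A lower level in E3 than in T9 by any amount was found for 17 members, against 49.3% of all genes, and for 9 of the 10 paternally expressed ones, all but Snrpn. Of the 17, Asb4 and the paternally expressed Slc38a4 were above background in T9 and not in E3. Detection fixed their order, with bounds of 1.14-fold for Asb4 and 1.03-fold for Slc38a4.

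Several other paternally expressed genes were lower in E3 by less than 2-fold. Peg10 differed by -0.98 on the log2 scale (E3 minus T9), Ndn by -0.85, Mest by -0.80, Nnat by -0.78, Dlk1 by -0.74 and Peg3 by -0.74. Further Mest probes gave smaller differences of -0.50 and -0.40. The median over the members was -0.46, with -0.76 for paternally and -0.16 for maternally expressed genes, against 0.004 over all genes. Grb10, Gnas and Impact, each 2-fold from ESC in both lines, differed between the lines by -0.31, -0.39 and -0.07. E3 and T9 differ in genetic background as well as in line, and both cannot be told apart. Fibroblast markers summed to 423 in E3 and 213 in T9. Among the 6 measured ones Thy1 differed most, with a normalized level of 7.77 in E3 and 5.74 in T9. Dcn and Loxl1 were also higher in E3, while Col1a1 and Pdgfra were above background in T9 and not in E3. Lum was below background in both lines. The endoderm sum was 103 in E3 and 172 in T9 and the trophoblast sum 113 and 583. Tfap2c carried most of the trophoblast difference, with signals of 164.7 ± 7.17 (E3), 609.0 ± 35.2 (T9) and 1469 ± 74.3 (OG2), the highest in the ESC line. The part of these cell types in the Igf2 difference was not tested.

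**Figure D5:**
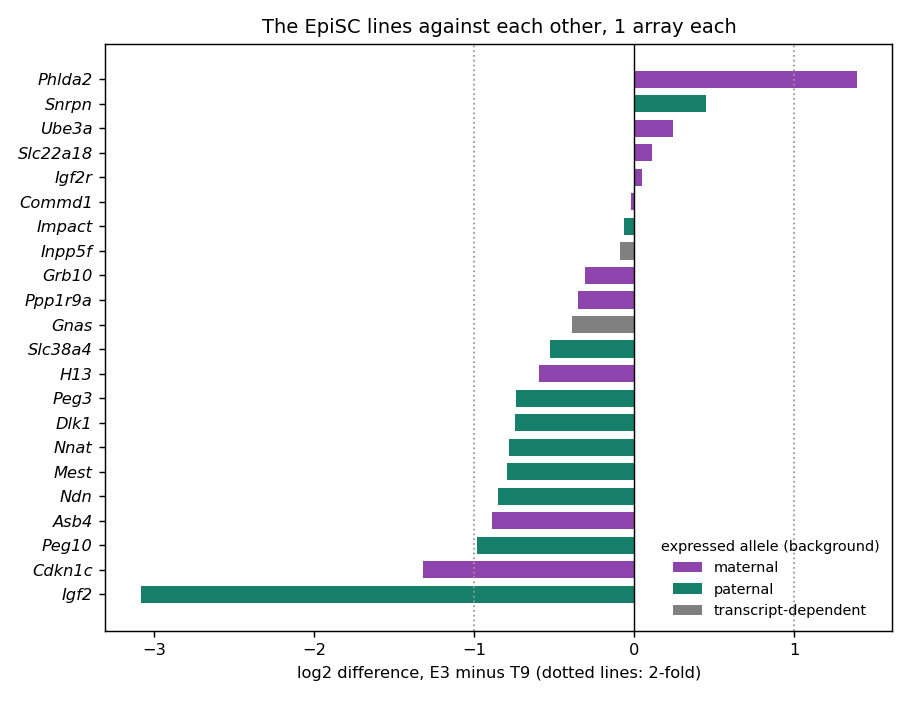
Log2 difference between the EpiSC lines, E3 minus T9 (x axis, dotted lines at 2-fold), for the 22 measured imprinted genes as bars, coloured by the allele each is known to express. Igf2 at -3.08 and Cdkn1c at -1.32 pass the 2-fold line on the T9 side and Phlda2 at 1.39 on the E3 side.

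The genes that keep imprints were read from a list of 26 regulators of DNA methylation and imprint maintenance, of which 17 were measured. Without adjustment, 7 of the 17 and 24.2% of all genes had a limma p under 0.05. With adjustment 1 fell and 0 rose in EpiSC, where 0.922% of all genes fell and 0.300% rose. The 1 was Zfp42, also a naive marker, with normalized log2 levels of 5.13 (E3) and 5.84 (T9) against 11.43 (OG2) (limma adjusted p = 0.0317). By size, with none past the threshold, Dnmt3l, the cofactor of de novo methylation in germ cells, was 19.02-fold lower (limma adjusted p = 0.115). The EpiSC lines lay far apart for Dnmt3l, at 38.9-fold lower in E3 and 9.30-fold lower in T9. Dppa3, which shields maternal methylation in the zygote, was 4.72-fold lower (adjusted p = 0.106), and Eed, a Polycomb subunit, 2.34-fold lower. Tdg, the glycosylase of active demethylation, was 2.44-fold higher (adjusted p = 0.0998). Dnmt3b, a de novo methyltransferase, was 4.94-fold higher in E3 and 1.96-fold in T9, with a log2 difference of 1.64 ± 0.63 and a limma adjusted p of 0.233. The maintenance genes differed less, with Dnmt1 at -0.73 ± 0.25, its partner Uhrf1 at -0.39 ± 0.27 and the Zfp57 corepressor Trim28 at -0.53 ± 0.26 on the log2 scale. Zfp57 had no probe. The list median was -0.39.

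Of a further list of 47 imprinted genes and close neighbours, 21 were measured, and the median was -0.46. Without adjustment, 11 of the 21 and 24.2% of all genes had a limma p under 0.05. With adjustment 3 fell and 0 rose, where 0.922% of all genes fell and 0.300% rose. The 3 were the signalling adaptor gene Gab1, 21.2-fold lower, the actin nucleator gene Cobl, 10.1-fold lower, and the cyclase gene Qpct, at least 5.73-fold lower (limma adjusted p from 0.0342 to 0.0444). Gab1 and Qpct are known as imprinted mainly in the placenta. By size, Jade1 was 4.73-fold, Ddc 3.04-fold and Dio3, of the Dlk1-Meg3 cluster, at least 2.24-fold lower, with none past the threshold. Dhcr7, a cholesterol synthesis gene near the Kcnq1ot1 cluster, was 3.85-fold higher and Atp10a, next to Ube3a, at least 2.50-fold higher, with limma adjusted p of 0.0763 for Dhcr7 and 0.0704 for Atp10a. Qpct and Dio3 were above background in OG2 only, and Atp10a in E3 and T9 only, so that detection fixed the direction of each.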

How the data were processed

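Total RNA of 2 EpiSC lines and 1 ESC line was amplified and read on 1 Illumina bead array each, per the labels' protocols. Groups came from the sample titles. Replicate numbers are names only.

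The authors deposited a linear signal intensity, with a bead standard error and a detection p-value per probe, per the file headers. They were neither background-subtracted (lowest 70.5, 66.7 and 69.3 in E3, T9 and OG2) nor normalized. The detection p-value deposited by the authors moves in steps of 1 in 798. BeadStudio was used, per the submitters' processing notes, with its version not given in the sources used. The authors' table of processed intensity values served as an alternative. Between 12900 and 12906 of its 25697 values per array were blank, and were set to the lowest value of that array. Over the values present its medians were 81.0, 80.8 and 80.8, and its ranks matched those of the scanner signals (rho of 1). Its normalization and centring stay unknown.

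Signals were background-corrected by normexp (background inferred from detection p-values, offset 16), put on a log2 scale and quantile-normalized (limma 3.58.1, R 4.3.3). The 12603 probes detected on 1 array or more (detection p under 0.01) were fitted with limma's lmFit and eBayes, EpiSC against ESC, with Benjamini-Hochberg adjustment over all of them and a threshold of 0.05. The fit was tested on simulated data. The spread rests on 2 lines with no repeat cultures, and bead standard errors cover error within an array only. The number of arrays limits the precision. E3 and T9 were compared by a 2-fold rule of size with no test. Each gene is read through the probe whose mean level is highest, and different probes are reported where they disagree. A probe not detected on all arrays of a group gives a bound, taken against the higher of the dimmest detected level on that array and its own. Of 25697 probes 23978 carried 1 gene symbol, 0 several and 1719 none, and levels of different probes were not compared.

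All 37 members could be named. Full statistics are given for members past the threshold or 2-fold apart in both lines or between the lines, and other members are given with shorter values. From each further list, genes past the threshold or 2-fold apart in both lines could be named, at most the 8 largest by the smaller line difference. Dnmt1, Dnmt3b, Uhrf1 and Trim28 fall outside this rule and were chosen after their values were seen. The members, lists, clusters and alleles came from background knowledge and were chosen with earlier results of these data known. Promoter sequences are from RefSeq (GRCm38.p6), and 31 members outside chromosome 18 matched. Impact lies on that chromosome and was left out of the promoter comparison.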

Additional observations from a re-analysis of the deposited data

Results flagged for a closer look

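For 3 imprinted genes the EpiSC values lay on opposite sides of the ESC value, by a wide margin only for Igf2. The difference between the lines was not tested, and both lines are read against the same ESC array. Igf2 had a log2 difference of -3.08 (E3 minus T9), Asb4 one of -0.89 and Ndn one of -0.85. Asb4 was above background in T9 only, so that E3 and OG2 have no order and T9 lay at least 1.14-fold above E3. For Ndn the E3 and OG2 signals, 325.7 ± 14.0 and 342.9 ± 12.7, differed by less than their combined bead standard error.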

How the results depend on the processing

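No paired analysis was possible because replicate numbers are names only and ESC has 1 sample, which also cannot be left out. The 145 probes past the threshold became 296 with median scaling, 344 with cyclic loess, 351 at a detection p under 0.05, 93 with detection on all 3 arrays, and 0 with no filter and with the authors' processed values. The 0 members past the threshold became 1, Grb10, with median scaling (adjusted p 0.0305), cyclic loess (0.0339), no background correction (0.0372), detection p under 0.05 (0.0319) and detection on all 3 arrays (0.0453). The 7 members 2-fold apart in both lines became 11 with the authors' values, and 10 to 12 when 1 EpiSC line was left out, which leaves 1 array a side and no test. The median of the members was 0.92 without E3 and 0.20 without T9, and that of paternally expressed genes 0.78 and -0.65. The maternal median of 0.77 became 0.45 with no background correction, 0.37 at a detection p under 0.05, 1.21 with detection on all 3 arrays, 0.24 with no filter and 1.02 with the authors' values. The 3 members 2-fold apart between the lines became 7 with the authors' values, 6 of them higher in T9, and 4 with median scaling. Of 237 single-gene values under alternatives 5 changed sign: Commd1 (-0.0042, cyclic loess), Ube3a (0.068, mean of its probes), Igf2 (0.87 without E3, -2.21 without T9), Asb4 (0.81 without E3, -0.079 without T9) and Ndn (0.68 without E3, -0.17 without T9). The cause was not tested. Slc22a18, Asb4, Peg3 and Slc38a4 were read near background.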
